A study of Mus musculus with 7 samples.

Results

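The axon guidance ligands and receptors were read out in follicular dendritic cells (FDCs), stromal cells that display antigen to B cells inside lymphoid follicles. They were taken from the deposited table by symbol: class 3 to 7 semaphorins, plexins, neuropilins, ephrins, Eph receptors, netrins, Unc5 receptors, Slits and Robos. The pattern found 63 of 21176 rows. These were 17 semaphorins, 11 plexin rows, 2 neuropilins, 6 ephrins, 13 Eph receptors, 3 netrins, 4 Unc5 receptors, 3 Slits and 4 Robos. Of the plexin rows, 2 are annotated antisense transcripts, Plxna4os1 and Plxna4os2, and the other 61 genes are protein coding. The cells were isolated by FACS, and the popliteal lymph nodes came from male mice, 8 to 12 weeks old and not immunized. The 7 samples were 4 pools from wild-type (WT) mice and 3 pools from Ngfr KO mice, labelled as knockouts of the gene for the p75 neurotrophin receptor, and each pool held lymph nodes of several animals. The labels give neither the strain nor whether the deletion is limited to some cells, and p-values measure the spread between pools.

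Axon guidance molecules were named for steering growing neurites, and the same ligand and receptor pairs set cell spacing, adhesion and vessel branching outside the nervous system. Secreted class 3 semaphorins bind neuropilins, which signal through plexins, while transmembrane semaphorins bind plexins directly. Membrane-bound ephrins signal to Eph receptors on neighbouring cells, netrins signal through Unc5 and DCC-type receptors, and Slits through Robos.

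Recovered reads per library ranged from 17244925 to 18873542 for WT and from 20741770 to 21538400 for Ngfr KO. Values are TMM-scaled read numbers, in which 1 is worth 230 to 295 reads. The read totals of the genotypes do not overlap, so depth and genotype cannot be told apart, and after thinning all libraries to the smallest total the same 17 guidance genes were called as without it. Gene positions below are on GRCm38, from GENCODE M21. Ngfr itself, on chromosome 11 from 95568818 to 95587735 (minus strand), had values of 0.377, 0.677, 1.30 and 1.14 in WT replicates 1 to 4 and 0.305, 0.353 and 0.184 in Ngfr KO replicates 1 to 3 (log2 change -0.52, SE 0.18, limma adjusted p = 0.0431). The groups did not overlap, and the call was lost under 13 of 18 alternatives, all of them with a negative change. The labels do not say which part of Ngfr is deleted, so the 46 to 104 reads left in Ngfr KO cannot be placed.

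The labelled cell type was checked against markers. All 15 FDC markers passed the filter, and 13 of them were called higher in Ngfr KO. Their summed values were 1826, 3953, 4165 and 5111 in WT replicates 1 to 4 and 7874 to 10398 for Ngfr KO, so WT replicate 1 lay well below the other WT pools. Markers of blood endothelium moved the other way: of 16, 12 passed the filter, and all 12 were called lower. The sum was 168, 129, 150 and 122 in WT replicates 1 to 4 and 29.4 to 51.8 for Ngfr KO. Of the 4 under the filter, Sox17 was at 0 in WT replicate 4 and Ngfr KO replicate 3. Of 6 lymphatic endothelial markers, 4 were called lower, with sums of 77.9 to 132 and 25.5 to 57.7. Several guidance genes below, among them Robo4, Ephb4, Efnb2, Unc5b and Nrp2, are well known from endothelium. The gates of the sort are not given in the labels. The part of these cells in the results was not tested, and in sorted bulk samples fewer cells of a type and less RNA per cell cannot be told apart.

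Of the 63 genes, 24 passed the filter, which asked for 3 samples with a value of 1 or more, and 39 did not. Among the 24, limma called 13 lower and 4 higher in Ngfr KO at an adjusted p-value under 0.05. Of the 13, Epha4, Ntn4, Unc5b and Robo4 reached a value of 1 in WT samples alone, so they passed the filter only through the group in which they were higher, and Nrp1, not called, passed only through Ngfr KO. Over all 8326 genes tested, 15.8% were called lower and 18.3% higher, 34.2% in all. The groups did not overlap for 16 of the 24, 11 with Ngfr KO below and 5 above, against 40.9% of all genes tested (18.3% below, 22.6% above). The median log2 change was -0.66 for the 24 genes and 0.02 for all genes tested. Genes that fell were found in every family with tested members: 3 semaphorins, 1 neuropilin, 2 plexins, 2 ephrins, 2 Eph receptors, 1 netrin, 1 Unc5 receptor and 1 Robo. Those that rose were 2 semaphorins, 1 Unc5 receptor and 1 Robo.

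The ligand families and the receptor families both had lower summed values in Ngfr KO. The 29 ligand genes summed to 88.4, 60.8, 74.9 and 51.7 in WT replicates 1 to 4 and to 40.5, 35.4 and 38.9 in Ngfr KO replicates 1 to 3. The 34 receptor rows summed to 48.5, 44.6, 37.7 and 44.9 in WT and to 34.3, 30.7 and 33.5 in Ngfr KO. Neither sum overlapped between the groups. Of the tested genes, 6 of 11 ligands fell and 2 rose, and 7 of 13 receptors fell and 2 rose.

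Without the filter on low values, 13 of the 63 genes then tested were called, against 10% of all genes. Of the 17, 10 were among them, and Sema5a, Efna1, Epha4, Ephb4, Ntn4, Unc5c and Robo2 were not. The number of calls depended on single libraries. It was 10 of 22 tested without WT replicate 1, where 23.3% of all genes tested were called. It was 11 of 23 without Ngfr KO replicate 2 (20% of all genes) and 11 of 23 without Ngfr KO replicate 3 (33.5%). With all samples it was 17 of 24 (34.2%). The rises went from 4 to 2 without any of WT replicates 1 and 3 and Ngfr KO replicates 1 and 3. Across all tested genes the log2 change ran against exon length (Spearman correlation -0.26, across genes that are not independent), and the 24 genes were long, with a median of 8686.5 exon bases against 4527 for all genes tested. With each sample's trend in length and GC content removed, 10 of the 24 were called lower and 6 higher. Of all genes tested, 33.2% were called in either direction. The median log2 change was then -0.39 for the 24 genes and 0.025 for all genes tested.

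**Figure D1:**
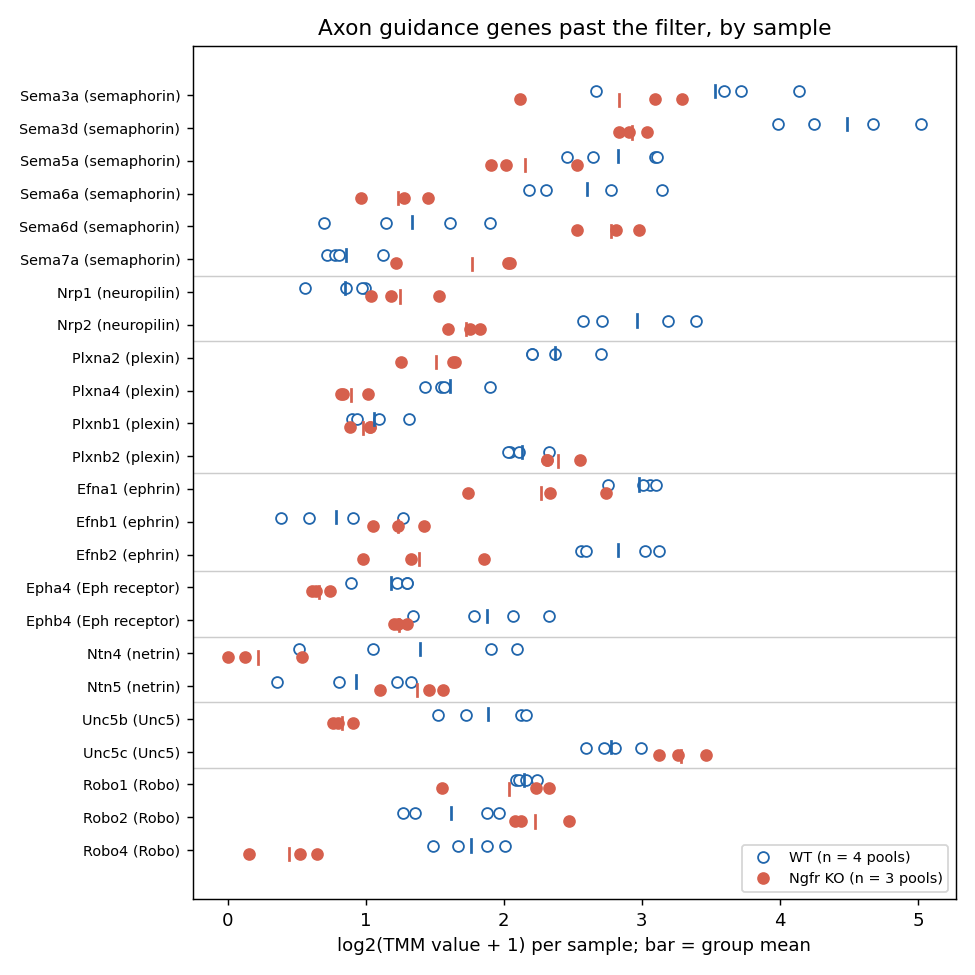
Each point is the log2(TMM value + 1) of 1 sample for the 24 axon guidance genes past the filter, ordered by family; open circles are WT pools, filled circles Ngfr KO pools, and short bars group means. Sema3d, Sema6a, Nrp2, Efnb2, Unc5b and Robo4 have every Ngfr KO sample to the left of every WT sample, and Sema6d, Sema7a, Unc5c and Robo2 have every Ngfr KO sample to the right.

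To show the sequence at the start of genes that moved in opposite directions, promoters are printed for the genes with the largest falls (Sema3d, Efnb2) and rises (Sema7a, Unc5c) on the log2(value + 1) scale among called genes with separate groups and a single RefSeq promoter entry; Sema6a is not shown. By edgeR, Robo4 and Sema6a fell further than either. Each runs 5′ to 3′ from 250 bases before to 50 after the RefSeq start (GRCm38.p6). Sema3d lies at chr5:12382916-12383215 (plus strand), Efnb2 at chr8:8661193-8661492 (minus), Sema7a at chr9:57939862-57940161 (plus) and Unc5c at chr3:141465314-141465613 (plus). RefSeq and GENCODE starts differ for 2 of them. The Sema3d window ends before the GENCODE start of the gene (12383385), and the Unc5c window lies inside the gene, which starts at 141465216. Capitals mark matches on either strand to the motifs searched.
Sema3d: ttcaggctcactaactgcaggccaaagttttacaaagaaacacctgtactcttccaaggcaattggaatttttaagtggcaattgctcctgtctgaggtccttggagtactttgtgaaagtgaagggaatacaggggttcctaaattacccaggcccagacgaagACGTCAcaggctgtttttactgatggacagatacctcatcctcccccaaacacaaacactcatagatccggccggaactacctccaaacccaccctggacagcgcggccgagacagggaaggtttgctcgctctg
Efnb2: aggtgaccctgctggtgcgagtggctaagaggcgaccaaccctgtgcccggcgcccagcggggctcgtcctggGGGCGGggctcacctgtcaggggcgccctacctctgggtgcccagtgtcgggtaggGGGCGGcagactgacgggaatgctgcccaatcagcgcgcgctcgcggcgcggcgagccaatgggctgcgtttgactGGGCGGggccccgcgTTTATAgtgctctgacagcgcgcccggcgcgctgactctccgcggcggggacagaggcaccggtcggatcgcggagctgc
Sema7a: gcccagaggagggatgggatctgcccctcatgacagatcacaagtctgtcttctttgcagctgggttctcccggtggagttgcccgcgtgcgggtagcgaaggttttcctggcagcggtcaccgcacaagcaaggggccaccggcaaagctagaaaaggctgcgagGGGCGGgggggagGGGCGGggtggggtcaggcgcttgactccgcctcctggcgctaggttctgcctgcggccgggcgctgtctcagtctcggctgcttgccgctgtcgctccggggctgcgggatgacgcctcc
Unc5c: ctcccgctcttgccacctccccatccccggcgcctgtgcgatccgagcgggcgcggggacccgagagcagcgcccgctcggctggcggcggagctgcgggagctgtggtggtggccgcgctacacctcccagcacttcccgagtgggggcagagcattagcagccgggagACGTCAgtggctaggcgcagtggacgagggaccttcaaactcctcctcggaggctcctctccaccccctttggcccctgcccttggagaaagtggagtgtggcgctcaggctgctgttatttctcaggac
In Efnb2 the capitals are 3 GC boxes (GGGCGG, bases 74 to 79, 130 to 135 and 206 to 211) and a TATA box read on the other strand (TATAAA, bases 221 to 226), and in Sema7a they are 2 GC boxes (bases 167 to 172 and 180 to 185). In Sema3d (bases 166 to 171) and Unc5c (bases 171 to 176) they mark the half-site of the cyclic AMP response element (TGACGT), read on the other strand and added to the search after these sequences had been seen. No marked match overlaps another.

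GC content was 49.7% in the Sema3d window, 72.3% in Efnb2, 67.3% in Sema7a and 68.3% in Unc5c, against a median of 52.7% over all 32851 promoter entries. A GC box was in 35.7% of all entries, a TATA box in 13.6% and the half-site in 7.51%. Of the guidance genes, 53 had a promoter entry, and 40 of them held a GC box, 2 a TATA box and 4 the half-site. A GC box was in 9 of 11 genes called lower and in 2 of 4 called higher. Searches for an NF-kB-like site (in 1.63% of all entries) and for the letters GTGGGAA (RBPJ, 6.38%), CCACACCC (KLF-type, 3.56%) and CCGGAAGT (ETS-type, 3.89%) found no match in the 4 windows shown. These matches describe letters and do not show binding.

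Semaphorins were the largest family by value, holding 35.0% to 49.2% of the summed value of all 63 genes in WT and 39.2% to 42.2% in Ngfr KO. Of 17 semaphorins, 6 passed the filter, 3 fell, 2 rose and 1 was not called. Their sums of 67.4, 45.0, 54.9 and 33.8 in WT lay above the 29.3, 26.0 and 30.6 of Ngfr KO.

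Sema3d, a secreted class 3 ligand, was the semaphorin with the highest value per exon length. Its gene (ENSMUSG00000040254, chromosome 5, 12383385 to 12588948, plus strand) had values of 31.5, 18.01, 24.5 and 14.9 in WT replicates 1 to 4 and 7.22, 6.50 and 6.14 in Ngfr KO replicates 1 to 3. All Ngfr KO values lay close together and below every WT value, while WT values spread about the 22.2 ± 7.4 mean (SD, n = 4). Limma gave a log2 change of -1.56 (SE 0.23, adjusted p = 0.000818), the largest fall of the 24 genes on the log2(value + 1) scale. With edgeR the change was -1.67 (adjusted p = 0.00573), and Ntn4, Robo4, Sema6a, Efnb2 and Unc5b had larger negative changes. Sema3d held 40.0% to 46.7% of the semaphorin sum for WT and 20.1% to 25.0% for Ngfr KO.

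Sema3a (ENSMUSG00000028883), the neighbouring class 3 gene on chromosome 5 (13125414 to 13602565, plus strand) and the classical growth-cone repellent, was not called. It had 16.6, 11.1, 12.2 and 5.36 in WT and 7.55, 3.34 and 8.78 in Ngfr KO (log2 change -0.70, SE 0.34, limma adjusted p = 0.123). WT replicate 4 lay within the Ngfr KO range, and without it the adjusted p was 0.0271.

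Sema6a and Sema6d are transmembrane class 6 semaphorins, and they moved in opposite directions. Sema6a (ENSMUSG00000019647, chromosome 18, 47235598 to 47368870, minus strand) had 7.84, 5.85, 3.95 and 3.54 in WT and 1.73, 1.42 and 0.957 in Ngfr KO. Every Ngfr KO sample was below every WT sample, and limma gave a log2 change of -1.37 (SE 0.23, adjusted p = 0.00140). Sema6d (ENSMUSG00000027200, chromosome 2, 124089969 to 124667770, plus strand) had 0.623, 2.05, 2.73 and 1.21 in WT and 4.78, 6.90 and 6.03 in Ngfr KO. Its lowest Ngfr KO value was above its highest WT value, and it had the largest rise of the 24 genes, 1.44 on the log2 scale (SE 0.25, limma adjusted p = 0.00166). Sema6d moved from rank 22 of 63 by value per kb of exon in WT to rank 5 in Ngfr KO.

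Sema7a is a semaphorin anchored to the membrane by a lipid and also known from immune cells. Sema7a (ENSMUSG00000038264, chromosome 9, 57940112 to 57962865, plus strand) had 0.646, 0.715, 0.752 and 1.18 in WT and 1.33, 3.09 and 3.14 in Ngfr KO. There was no overlap, though Ngfr KO replicate 1 lay close to WT replicate 4. Limma gave a log2 change of 0.91 (SE 0.21, adjusted p = 0.00657), and edgeR on the recovered reads gave 1.68 (adjusted p = 0.0119). By value per kb it ranked 15 in WT and 3 in Ngfr KO.

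Sema5a (ENSMUSG00000022231, chromosome 15, 32244810 to 32696341, plus strand), a transmembrane semaphorin with thrombospondin-type repeats, had 7.55, 5.25, 7.65 and 4.51 in WT and 4.77, 2.76 and 3.04 in Ngfr KO. Ngfr KO replicate 1 lay above WT replicate 4, so the groups overlapped, and limma gave a log2 change of -0.68 (SE 0.21, adjusted p = 0.0279). The call was lost with edgeR (adjusted p = 0.0829), with the length and GC trend removed (0.222), without WT replicate 1 (0.0724) or 3 (0.0611) and without Ngfr KO replicate 2 (0.117) or 3 (0.0770).

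The other 11 semaphorins stayed under the filter. Of these, Sema3c, Sema3e and Sema6c had too few reads for edgeR as well, with at most 3 reads per sample for Sema3e. Class 4 members Sema4a, Sema4b, Sema4c, Sema4d and Sema4g overlapped between groups, and edgeR called none of them (adjusted p from 0.496 to 0.991). Sema4d, a ligand of plexin-B1, had 24 to 73 reads for WT and 28 to 47 for Ngfr KO.

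Among the receptors of these ligands, Nrp2, Plxna2 and Plxna4 fell. Nrp2 (ENSMUSG00000025969, chromosome 1, 62703285 to 62818695, plus strand), a co-receptor of class 3 semaphorins and of lymphatic growth factors, had 9.53, 8.12, 5.55 and 4.94 in WT and 2.55, 2.38 and 2.03 in Ngfr KO. All Ngfr KO samples were below all WT samples, with limma giving a log2 change of -1.24 (SE 0.20, adjusted p = 0.00137). Nrp1 (ENSMUSG00000025810, chromosome 8, 128358604 to 128503363, plus strand), the paralog that binds Sema3a, had 0.809, 0.996, 0.478 and 0.961 in WT and 1.27, 1.05 and 1.89 in Ngfr KO. Here every Ngfr KO value was above every WT value, but Nrp1 was not called (log2 change 0.40, SE 0.17, limma adjusted p = 0.0783). It was called with the length and GC trend removed (0.0146) and with quantile normalization (0.0480).

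Plexins are the signalling receptors for semaphorins, and class A plexins are the usual partners of neuropilins and of class 6 ligands. Of the 11 rows, 4 passed the filter and 2 fell. Plxna2 (ENSMUSG00000026640, chromosome 1, 194618218 to 194816869, plus strand) had 5.53, 4.18, 3.60 and 3.61 in WT and 2.13, 2.10 and 1.39 in Ngfr KO, without overlap (log2 change -0.86, SE 0.18, limma adjusted p = 0.00373). Plxna4 (ENSMUSG00000029765, chromosome 6, 32144268 to 32588192, minus strand) had 1.70, 1.92, 2.73 and 1.96 in WT and 1.02, 0.770 and 0.781 in Ngfr KO, also without overlap (log2 change -0.72, SE 0.15, limma adjusted p = 0.00480). The class A genes under the filter were not called by edgeR: Plxna1 had 82 to 203 reads for WT and 64 to 83 for Ngfr KO (adjusted p = 0.213), and Plxna3 had 2 to 25 and 1 to 27 (0.769). The Plxna4 call was lost with the length and GC trend removed (adjusted p = 0.0841).

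Class B plexins were not called. Plxnb2 (ENSMUSG00000036606), the plexin with the highest value per exon length, had 3.12, 3.09, 3.32 and 4.03 in WT and 3.98, 4.87 and 3.96 in Ngfr KO, with overlap (log2 change 0.26, SE 0.15, limma adjusted p = 0.191). With the length and GC trend removed it was called higher (log2 change 0.45, adjusted p = 0.0255). Plxnb1 (log2 change -0.08, limma adjusted p = 0.700) kept no stable sign across alternatives. Plxnd1, a vascular semaphorin receptor under the filter, was covered by 140 to 304 reads for WT and 175 to 258 for Ngfr KO, and edgeR gave a log2 change of 0.08 (adjusted p = 0.900). The antisense row Plxna4os1 had 73 to 145 reads for WT and 21 to 60 for Ngfr KO (edgeR adjusted p = 0.112). It shares no exon base with Plxna4 in GENCODE M21, but whether the counting used strand is not given in the sources used here.

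Among ephrins, the ligands of Eph receptors, 3 of 6 passed the filter and 2 fell. Efna1 had the highest value per kb of exon of all 63 genes in both genotypes, 3.79 in WT and 2.2 in Ngfr KO. Efnb2 (ENSMUSG00000001300, chromosome 8, 8617434 to 8661242, minus strand), the transmembrane ligand of EphB4 in arterial endothelium, had 7.71, 4.89, 7.13 and 5.04 in WT and 1.51, 0.977 and 2.61 in Ngfr KO. Every Ngfr KO value was well below every WT value, with limma giving a log2 change of -1.44 (SE 0.22, adjusted p = 0.000960). Efnb2 ranked 3 by value per kb in WT and 11 in Ngfr KO.

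Efna1 (ENSMUSG00000027954, chromosome 3, 89271733 to 89281142, minus strand), which is attached to the membrane by a lipid, had 7.35, 5.77, 7.58 and 7.06 in WT and 5.69, 4.04 and 2.34 in Ngfr KO. The groups touched but did not overlap, WT replicate 2 lying just above Ngfr KO replicate 1, and limma gave a log2 change of -0.71 (SE 0.22, adjusted p = 0.0251). The call was lost with edgeR (adjusted p = 0.122) and without WT replicate 1 (0.0559), Ngfr KO replicate 2 (0.0605) or Ngfr KO replicate 3 (0.0794). Efnb1 (ENSMUSG00000031217), on the X chromosome, had 0.506, 0.880, 0.304 and 1.41 in WT and 1.08, 1.68 and 1.35 in Ngfr KO. Its groups overlapped through WT replicate 4 and it was not called (log2 change 0.45, SE 0.20, limma adjusted p = 0.10), while without that replicate the adjusted p was 0.0226.

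Eph receptors, a large family of receptor tyrosine kinases, were mostly at low values: 2 of 13 passed the filter and both fell. Ephb4 (ENSMUSG00000029710, chromosome 5, 137350109 to 137378669, plus strand), a receptor of venous endothelium and the Eph gene with the highest value per exon length, had 3.18, 2.44, 1.53 and 4.02 in WT and 1.35, 1.46 and 1.30 in Ngfr KO. There was no overlap, but WT replicate 3 came close to Ngfr KO replicate 2 (log2 change -0.63, SE 0.21, limma adjusted p = 0.0335). It was among the least stable calls, lost with edgeR (adjusted p = 0.0616) and without any of WT replicates 1 (0.0807), 2 (0.0551) and 4 (0.0720) or Ngfr KO replicates 1 (0.0839), 2 (0.0784) and 3 (0.0802). Epha4 (ENSMUSG00000026235, chromosome 1, 77367185 to 77515088, minus strand), which binds ephrins of both classes, had 1.34, 0.861, 1.46 and 1.46 in WT and 0.559, 0.526 and 0.669 in Ngfr KO. These groups stood apart, with limma giving a log2 change of -0.52 (SE 0.15, adjusted p = 0.0200) and -1.07 with edgeR (adjusted p = 0.0337). The call was lost without Ngfr KO replicate 1 (adjusted p = 0.0691) or 2 (0.0708) and with the length and GC trend removed (0.0836). Without any of WT replicates 1, 3 and 4, Epha4 failed the filter and was not tested.

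Netrins are secreted ligands related to laminins. Ntn4 (ENSMUSG00000020019, chromosome 10, 93640681 to 93747207, plus strand), a netrin of basement membranes and the netrin with the highest value per exon length in WT, had 3.26, 2.75, 1.08 and 0.431 in WT and 0.453, 0.0916 and 0 in Ngfr KO. WT values differed widely, from 113 reads in replicate 4 to 839 in replicate 1, and WT replicate 4 lay below Ngfr KO replicate 1. Limma gave a log2 change of -1.17 (SE 0.32, adjusted p = 0.0154). The call was lost with edgeR (adjusted p = 0.0694) and without Ngfr KO replicate 2 (0.0562) or 3 (0.0570). Without any of WT replicates 1, 2 and 3, Ntn4 failed the filter and was not tested.

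Ntn5 (ENSMUSG00000070564), the leading netrin per exon length in Ngfr KO, had 0.280, 0.749, 1.34 and 1.51 in WT and 1.75, 1.95 and 1.15 in Ngfr KO. The groups overlapped and it was not called (log2 change 0.45, SE 0.22, limma adjusted p = 0.137). Ntn5 shares 519 exon bases (23.4% of its exon length) with Sec1 on the other strand, whose mean value over samples was 1.99, so that its reads are uncertain.

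Unc5 receptors, which bind netrins, split into a fall and a rise. Unc5b (ENSMUSG00000020099, chromosome 10, 60762593 to 60831581, minus strand), the family member of sprouting vessels, had 3.36, 1.87, 2.31 and 3.48 in WT and 0.700, 0.739 and 0.881 in Ngfr KO. The groups were far apart, with limma giving a log2 change of -1.06 (SE 0.18, adjusted p = 0.00145). Unc5c (ENSMUSG00000059921, chromosome 3, 141465216 to 141834924, plus strand) had 5.98, 6.95, 5.05 and 5.60 in WT and 8.59, 7.71 and 10.1 in Ngfr KO. Each Ngfr KO sample was above each WT sample, with limma giving a log2 change of 0.51 (SE 0.16, adjusted p = 0.0327). The Unc5c call was lost with quantile normalization (adjusted p = 0.0812) and without WT replicate 1 (0.0601), 3 (0.0571) or 4 (0.0613) or Ngfr KO replicate 1 (0.0889) or 3 (0.0779). Unc5a and Unc5d had at most 50 and 11 reads in any sample.

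Slits and their Robo receptors were unequal in level. None of the 3 Slits passed the filter: Slit2 had 21 to 146 reads for WT and 46 to 75 for Ngfr KO, Slit1 had 23 to 53 and 1 to 16, and Slit3 at most 26 in any sample. A change was not detectable in them at this depth by edgeR (adjusted p from 0.164 to 0.989).

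Of the 4 Robos, 3 passed the filter, and Robo4 fell furthest. Robo4 (ENSMUSG00000032125, chromosome 9, 37401897 to 37415115, plus strand), an endothelial receptor that stabilizes vessels, had 2.68, 3.02, 1.80 and 2.18 in WT and 0.439, 0.563 and 0.112 in Ngfr KO. The groups were widely separated, with limma giving a log2 change of -1.32 (SE 0.17, adjusted p = 0.000495) and -2.60 with edgeR (adjusted p = 0.00919). It ranked 9 by value per kb in WT and 27 in Ngfr KO.

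Robo2 (ENSMUSG00000052516, chromosome 16, 73891839 to 74411825, minus strand), a neuronal Slit receptor, had 1.56, 2.90, 1.41 and 2.68 in WT and 4.55, 3.24 and 3.36 in Ngfr KO. All Ngfr KO samples were above all WT samples (log2 change 0.61, SE 0.20, limma adjusted p = 0.0344). This call was lost with edgeR (adjusted p = 0.0667) and without WT replicate 1 (0.0895) or 3 (0.0740) or Ngfr KO replicate 1 (0.138), 2 (0.0600) or 3 (0.0546). Robo1 (ENSMUSG00000022883), the Robo with the highest value in WT before division by length, had 3.72, 3.25, 3.32 and 3.48 in WT and 3.70, 1.93 and 4.02 in Ngfr KO. The groups overlapped and it was not called (log2 change -0.11, SE 0.19, limma adjusted p = 0.660); the change was 0.13 without Ngfr KO replicate 2 and 0.22 with the length and GC trend removed.

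**Figure D2:**
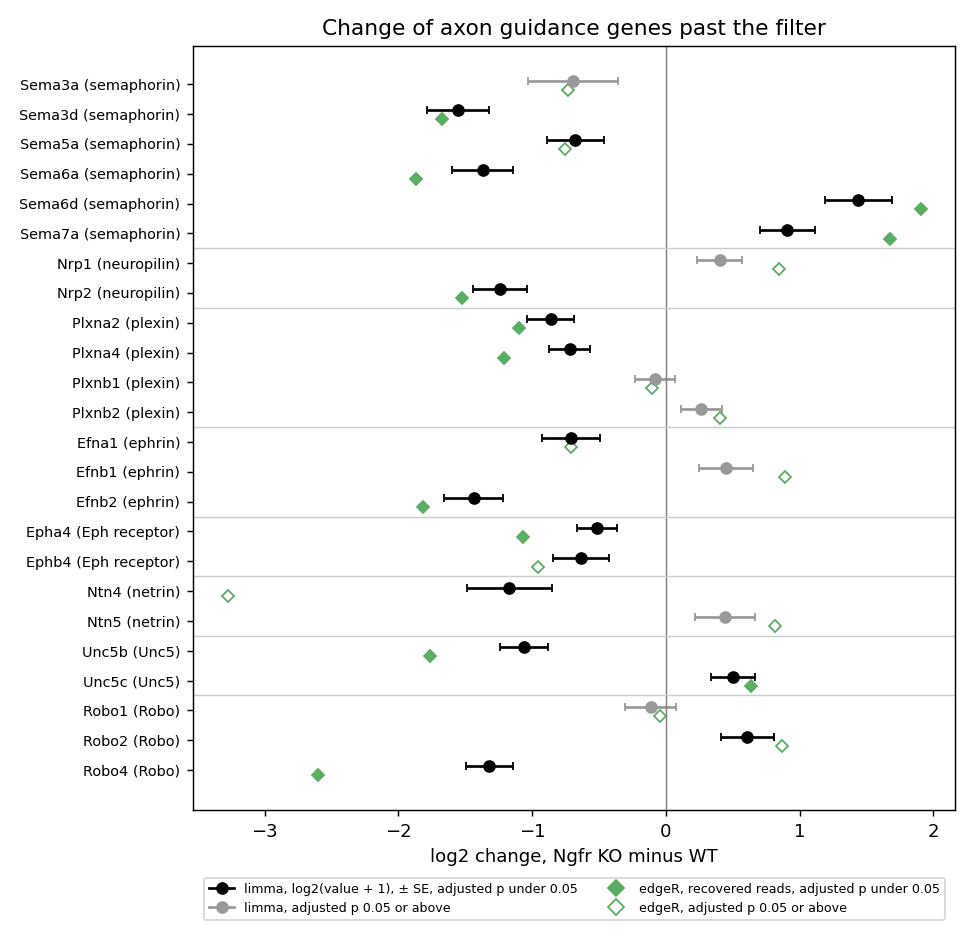
Circles are log2 changes (Ngfr KO minus WT) from limma on log2(value + 1) with standard errors, black where the adjusted p-value was under 0.05; diamonds are edgeR log2 changes on recovered reads, filled where called. The changes run from -1.56 (Sema3d) to 1.44 (Sema6d) in limma, and edgeR changes lie further from 0 for low genes such as Robo4 (-2.60).

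Among the 39 genes that failed the filter, 29 had enough reads for edgeR, which called 4, all lower in Ngfr KO. Among all 8425 genes failing the filter that edgeR tested, 5.69% were called, 3.34% lower and 2.35% higher. The 4 were Ntn1, Epha2, Robo3 and Sema6b. The Ngfr KO values were all under the WT values for 10 of the 39 genes and all over them for none. Among all 12850 genes failing the filter these shares were 9.76% and 5.98%. Of the 29 genes that edgeR could test, 9 were under and none over, against 12.8% and 7.53% of the 8425.

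Ntn1 (ENSMUSG00000020902, chromosome 11, 68209364 to 68400823, minus strand), the founding netrin, had 0.852, 0.269, 1.99 and 1.55 in WT and 0.0145, 0.0305 and 0.0881 in Ngfr KO. In reads, these were 219, 72, 458 and 406 against 4, 9 and 22, so Ntn1 was near the limit of detection in Ngfr KO. The edgeR log2 change was -4.67 (adjusted p = 0.00730), the largest among the 53 genes that edgeR tested. Limma without the filter gave -0.98 (adjusted p = 0.0629), so that test did not call it.

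Epha2 (ENSMUSG00000006445, chromosome 4, 141301240 to 141329384, plus strand), a receptor of ephrin-A1, had 0.833, 0.569, 0.656 and 0.458 in WT and 0.0725, 0.173 and 0.164 in Ngfr KO (edgeR log2 change -2.13, adjusted p = 0.0170). The call was lost without WT replicate 1 (0.0520) or Ngfr KO replicate 1 (0.0593). Robo3 (ENSMUSG00000032128, chromosome 9, 37415669 to 37433246, minus strand), known from commissural neurons, lies tail to tail with Robo4, 553 bases away. It had 0.790, 0.715, 0.682 and 1.22 in WT and 0.152, 0.153 and 0.308 in Ngfr KO (edgeR log2 change -2.01, adjusted p = 0.0128), and the call was lost without Ngfr KO replicate 1 (0.0543) or 2 (0.0542). Sema6b (ENSMUSG00000001227, chromosome 17, 56123085 to 56140343, minus strand), a class 6 semaphorin, had 0.537, 0.386, 0.304 and 0.652 in WT and 0.102, 0.109 and 0.104 in Ngfr KO (edgeR log2 change -2.09, adjusted p = 0.0214). Its call was lost without WT replicate 1 (0.0610) or Ngfr KO replicate 1 (0.0719) or 2 (0.0648). In all 4 genes the groups stood apart in every sample.

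**Figure D3:**
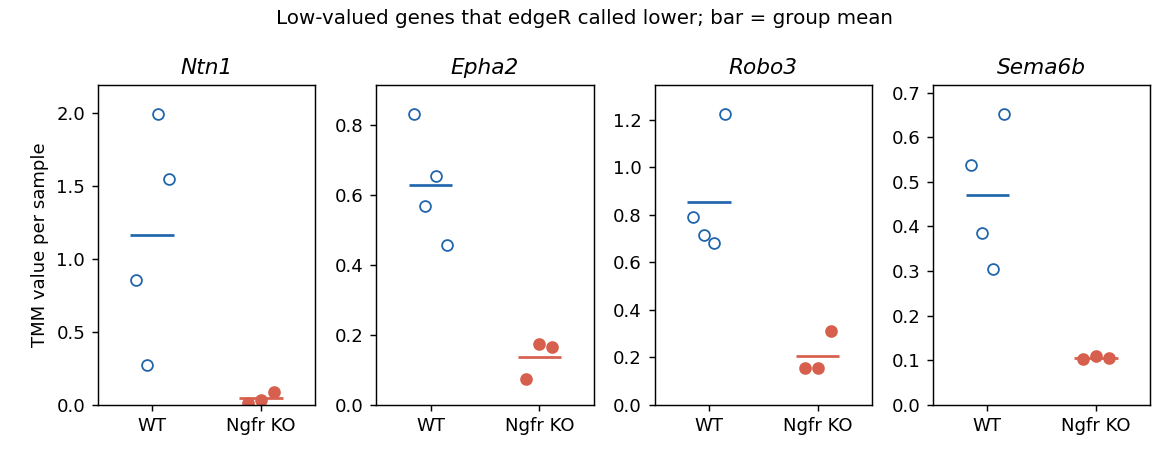
TMM values per sample of the 4 genes under the filter that edgeR called lower, with bars for group means; each panel has its own axis from 0. Every Ngfr KO point is below every WT point, and Ntn1 lies at or below 0.0881 in Ngfr KO.

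Over all 53 genes that edgeR tested, 13 were called lower and 3 higher, against 6.55% lower and 8.67% higher (15.2% in all) of 16751 genes. Limma and edgeR both called 12 of the 24 genes past the filter. The 5 called by limma alone were Sema5a, Efna1, Ephb4, Ntn4 and Robo2. Of the genes left out by both tests, 10 in number, 5 were Eph receptors (Epha3, Epha5, Epha6, Epha7 and Epha10), and 1, Unc5d, had no read in any Ngfr KO sample.

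Division by exon length allows levels of different genes to be compared. In WT the order began with Efna1 (3.79 per kb), Sema3d (2.59), Efnb2 (0.903), Sema3a (0.815), Sema6a (0.603) and Ephb4 (0.602). In Ngfr KO it began with Efna1 (2.2), Sema3d (0.770), Sema7a (0.764), Ntn5 (0.729), Sema6d (0.559) and Plxnb2 (0.554). Neighbours in these orders such as Sema6a and Ephb4 in WT, or Sema3d and Sema7a in Ngfr KO, differed by less than their spread over samples. Sema3d and Efna1 led in both genotypes. Efnb2, Sema3a, Sema6a and Ephb4 stood in the WT list alone, and Sema7a, Ntn5, Sema6d and Plxnb2 in the Ngfr KO list alone. Of these, Sema3a, Ntn5 and Plxnb2 were not called, and the order itself was not tested.

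**Figure D4:**
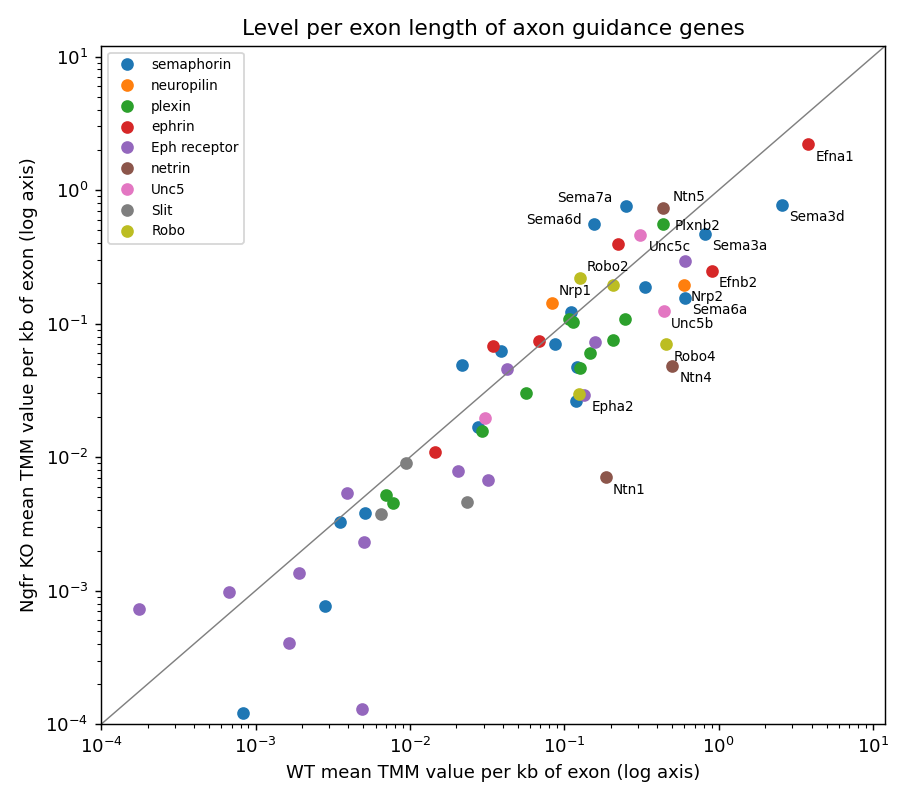
Mean TMM value per kb of exon in Ngfr KO against WT, both on log axes, for the 62 genes with a mean above 0 in both groups, coloured by family; the line marks equal levels. Efna1 lies furthest along both axes, Ntn1, Ntn4 and Robo4 lie far below the line, and Sema7a and Sema6d above it.

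The balance between genes of 1 family was computed per sample as a ratio of values per kb, for pairs chosen after their values were seen and therefore without a test. Nrp2 exceeded Nrp1 9.73, 6.74, 9.59 and 4.25 times in WT replicates 1 to 4 and 1.66, 1.87 and 0.884 times in Ngfr KO replicates 1 to 3. The ratio of Unc5b to Unc5c was 1.72, 0.823, 1.40 and 1.90 in WT and 0.249, 0.293 and 0.268 in Ngfr KO. That of Robo4 to Robo2 was 5.51, 3.33, 4.09 and 2.61 in WT and 0.309, 0.557 and 0.107 in Ngfr KO. In these 3 pairs no Ngfr KO sample reached the lowest WT sample. That was fixed in advance: every Ngfr KO value was below WT for the first gene and above WT for the second.

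The class 6 and ephrin-B pairs behaved alike. Sema6a to Sema6d stood at 15.1, 3.43, 1.74 and 3.51 in WT and at 0.435, 0.249 and 0.191 in Ngfr KO. Efnb2 to Efnb1 stood at 7.68, 2.80, 11.8 and 1.80 in WT and at 0.705, 0.293 and 0.973 in Ngfr KO. Sema6a and Efnb2 exceeded their partners in every WT sample and were below them in every Ngfr KO sample. Sema6a and Sema6d also had separate groups in opposite directions, so their ratios had to separate. The ratio of Plxna2 to Plxnb2 was 0.402 to 0.796 for WT and 0.158 to 0.240 for Ngfr KO. Sema3d to Sema3a had 2.63 to 4.48 for WT and 1.13 to 3.14 for Ngfr KO, with overlapping groups.

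**Figure D5:**
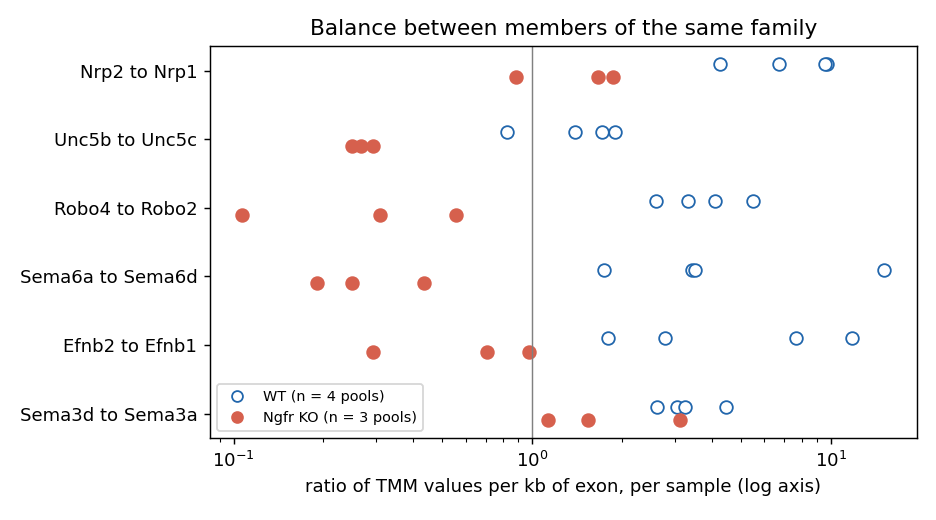
Ratio of TMM values per kb of exon between 2 genes of a family, 1 point per sample on a log axis, open for WT and filled for Ngfr KO; the line marks 1. The WT and Ngfr KO points overlap in 1 of the 6 pairs plotted, Sema3d to Sema3a. The pairs were chosen after their values were seen, so their separation is no test.

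The other genes of these pathways were described from 4 lists of co-receptors and signalling partners. Of 89 listed genes in the table, 55 passed the filter, 20 were called lower and 8 higher (background 15.8% and 18.3%), and their median log2 change was -0.22. Netrin, Slit and Robo partners had 8 of 16 lower and 2 higher. Flrt2, an Unc5 ligand, had a log2 change of -1.10 (limma adjusted p = 0.000930), and Srgap3, a GTPase-activating protein that binds Robo receptors, one of -0.97 (0.00285). Sdc2, a heparan sulfate proteoglycan, rose by 1.37 (0.00178). Evl, an actin regulator of the Ena/VASP type, fell by 0.77 on the log2 scale (0.00869).

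Semaphorin and plexin partners had 3 of 14 lower and 3 higher. Mical2, of the MICAL family of actin-oxidizing enzymes, fell by 1.00 on the log2 scale (limma adjusted p = 0.000603). Dpysl3, of the collapsin response mediator family, rose by 1.03 (0.00496), Trem2, a receptor of myeloid cells, by 1.21 (0.000320), and the receptor tyrosine kinase gene Met by 0.84 (0.0220), the last with overlapping groups. The summed value of the myeloid markers was 18.6 to 26.1 for WT and 29.1 to 78.8 for Ngfr KO, and their part in the Trem2 result was not tested.

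Ephrin and Eph partners had 4 of 13 lower and 1 higher. Vav3, a guanine nucleotide exchange factor, fell by 1.09 on the log2 scale (limma adjusted p = 0.000885), the Src-family kinase gene Yes1 by 0.82 (0.00614) and Itsn2 by 0.67 (0.0416), the last with overlapping groups. Sdcbp, which encodes the ephrin-B-binding scaffold syntenin, rose by 0.70 (0.0185).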

How the data were processed

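RNA of FACS-isolated FDCs was amplified with SMART-Seq v4 and made into libraries with Nextera XT, per the labels' protocols. The submitters' processing notes name bcl2fastq 2.20.0.422 and mm10; the aligner, counter and strand setting are not given in the sources used here. The values deposited by the authors are a TMM-scaled signal, and in each sample every one (100%) was a whole multiple of 1 step, which gave back whole reads. Values were tested as log2(value + 1) with limma 3.58.1 (trend) over genes that reached 1 in 3 or more samples, and recovered reads with edgeR 4.0.16 (quasi-likelihood, R 4.3.3), with Benjamini-Hochberg adjustment over all genes tested. Folds on the log2(value + 1) scale understate changes of low genes. Exon lengths and positions are from GENCODE M21 (GRCm38), in which all 63 genes were found by identifier. The named genes are every called gene, the leading gene per kb of each family, and genes under the filter that edgeR called or that had almost no reads; of the partner lists, up to 4 called genes each. Genes and lists were chosen with earlier results of these data known. Both tests were checked on simulated counts with 200 genes changed 4-fold. Of the changed genes that passed its own filter, limma recovered 97.9% with 8.17% false calls, and edgeR 96.5% with 3.98%. The filters differ, so the recovery rates do not share a denominator and cannot rank the tests. These rates belong to that setting alone. Recovery of smaller folds, or with as many genes changed as the 2844 called here, was not tested. Changed genes were drawn only from those with higher read numbers. Genes with few reads were left unchanged, so their recovery was not tested. Alternatives were other pseudocounts, filters, scalings and models, thinned reads, a replicate block, and leaving out each library. Some results of the marker and partner lists are not reported here.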

Additional observations from a re-analysis of the deposited data

Results flagged for a closer look

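The summed value of 5 plasma cell markers reached 45.7 in WT replicate 3, while the remaining WT samples had 6.95 to 10.8. The gap was 0.899 of the range of the 4 samples, above Dixon's 95% critical value. Of 56 results examined this was the 1 that stood out in this way, and chance gives about 2.8. No axon guidance gene or family sum was singled out among WT samples. The plasma cell sum was 18.2 to 18.9 in Ngfr KO, below WT replicate 3 and above every other WT sample.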

How the results depend on the processing

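Of 21 called guidance genes (17 by limma, 4 by edgeR under the filter), 9 were called in every alternative in which they were tested: Sema3d, Sema6a, Sema6d, Sema7a, Nrp2, Plxna2, Efnb2, Unc5b and Robo4. All 21 kept their sign. In limma the replicate block gave the same log2 changes as leaving out WT replicate 4, so these alternatives are not separate checks. Over 444 single-gene alternatives, 378 kept direction and call, 54 lost the call, 7 gained one and 5 reversed, none of the last for a called gene: Robo1 had 0.22 with the length and GC trend removed and 0.13 without Ngfr KO replicate 2 (-0.26 to 0.13 over the left-out libraries), and Plxnb1 had 0.0045 with the replicate block, 0.18 with the trend removed and 0.0045 without WT replicate 4 (-0.13 to 0.0045).

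With a stricter filter, 10 or more in 3 or more samples, 535 genes were called against 2844 (359 higher, or 67.1% against 53.7%, and 176 lower), and of the 2 guidance genes still tested 1 was called, lower (0 higher, 1 lower); of the partner lists 3 were. Without a filter 10% of all genes were called against 34.2%. In that setting 2 guidance genes were called higher against 4, and 18 list genes were called against 28. Leaving out 1 library gave 1614 to 3006 calls over all genes (833 to 1687 higher, 781 to 1373 lower), 10 to 16 among guidance genes (2 to 4 higher, 8 to 12 lower), 15 to 30 in the lists and 1 to 4 of the 4 genes under the filter (1 without Ngfr KO replicate 1, 2 without WT replicate 1 or Ngfr KO replicate 2).

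The Ngfr change of -0.52 lost its call with a pseudocount of 0.1 (-1.26, limma adjusted p = 0.0521), without a filter (-0.52, 0.122), with the strict filter (-0.52, 0.477), quantile normalization (-0.47, 0.0552), median ratio scaling (-0.50, 0.0523), the replicate block (-0.45, 0.0883) and edgeR (-1.55, 0.0574), and ran from -0.66 to -0.41 with 1 library left out. The cause was not tested.

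Same-numbered WT and Ngfr KO samples correlated at 0.298, -0.0593 and -0.0108 in their deviations from group means. The first was the highest of all WT and Ngfr KO pairs, and the next was 0.111 (WT replicate 3 with Ngfr KO replicate 2). These values cannot tell whether the same number marks a shared batch. With the number as a replicate block, 2717 genes and 17 guidance genes were called (13 lower, 4 higher; 15 shared): Ephb4 (adjusted p = 0.0609) and Unc5c (0.0871) were lost, and Sema3a (0.00862) and Efnb1 (0.0163) gained. No Ngfr KO sample shares the number of WT replicate 4, so the block takes that sample out of the genotype estimate. The limma log2 changes therefore equalled those without WT replicate 4: -0.98 for Sema3a, 0.61 for Efnb1, -0.49 for Ephb4 and 0.49 for Unc5c. These gains and losses cannot be credited to pairing by number. In edgeR with the block 3 of the 4 genes under the filter were called, and Sema6b (0.0742) was lost. Depth limits the 19 guidance genes with at most 50 reads in every sample.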
